A study of Mus musculus with 6 samples.

Results

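Long noncoding RNAs are transcripts that are not translated into protein. They can act as scaffolds of nuclear bodies, as sponges or precursors of small RNAs, or through the act of their own transcription. The 8 named ones followed here were Malat1, Neat1, Miat, Mir17hg, Platr8, Tug1, E030044B06Rik and 9530059O14Rik, beside 25421 genes tested in all. They were found through probes whose listed accession is a RefSeq transcript of the RNA, and 7 of the 8 had such a probe, with 9 of the 55681 distinct probes between them. Miat, whose accessions matched no probe, was not analysed here. Some of the 8 were chosen because their signal differed between SC1 and DMSO. Their values in that comparison are therefore given as a description, without a p-value, and support nothing beyond themselves.

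The cells were embryonic stem cells of the J1 line (129S4/SvJae strain, inner cell mass). All 6 samples were adapted to gelatin, with no feeder layer named, and kept in serum replacement medium with 1000 U/ml of LIF, the cytokine that sustains self-renewal through STAT3. One group of 3 samples received 1 µM SC1 for 6 h, and the other 3 are named for DMSO, a solvent. The treatment text of the labels describes SC1 for both groups, so the groups were taken from the sample titles. SC1 (pluripotin) is a synthetic compound with ERK1 and RasGAP as reported targets. The comparison asks which coding and noncoding RNAs respond to it. Each RNA, carrying the Cy3 dye, filled its own single-colour array. A single line was used, and nothing in the labels says that replicates were separate cultures, so errors and p-values cover only how these samples varied, and that variation may be technical.

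The 6 arrays lay on 1 slide and were scanned together. The first position number at the end of each array's barcode is called slide column here. Whether it is a column or a row of the slide was not checked. The 3 DMSO arrays and SC1 replicate 1 were in slide column 1, and SC1 replicates 2 and 3 in slide column 2. A fit with slide column as a block therefore estimates the difference from SC1 replicate 1 alone against the 3 DMSO arrays. A call lost in that fit cannot be told from the loss of arrays. Between 63.2% and 65.59% of probes were well above background per array, and no spot was saturated. The number of arrays limits the precision. All 8 embryonic stem cell markers, among them Pou5f1, Sox2 and Nanog, were above background. Their summed signal was 562 to 586 times the array's 75th percentile with DMSO and 572 to 604 times with SC1. In limma 1 of them rose and 3 fell (Tdgf1 by 1.39, Sox2 by 0.28 and Zfp42 by 0.25 on the log2 scale). The call of Zfp42 was lost under 9 of the 19 processing alternatives described at the end. Sums are given for each list on its own, since levels of different probes are not comparable. The 5 of 7 trophoblast markers above background summed to 11.9 to 12.6 with DMSO and 29.1 to 31.2 with SC1, and Elf5 and Hand1 were not above background. Of these 5, Tfap2c (1.37) and Gata3 (0.96) rose, and Eomes (-0.39) and Cdx2, not above background on any SC1 array, fell. The call of Cdx2 was lost under 8 of 18 alternatives, and its sign turned under 1. The 6 of 7 neural markers above background went from between 7.11 and 7.21 to between 10.1 and 10.8, while 2 rose, among them Tubb3 (0.94), and Pax6 (-1.83) and Sox1 (-0.52) fell, with Neurog2 not above background. The 6 of 8 fibroblast markers went from between 2.35 and 2.51 to between 1.99 and 2.04 in sum, although 4 of them rose and 1 fell, with Postn and Lum not above background. All 7 primitive endoderm markers were above background, at 1.02 to 1.09 with DMSO and 1.1 to 1.23 with SC1. In limma 3 rose and 0 fell, with 4 at an unadjusted p under 0.05. Gata4, 1 of the 3, had a limma adjusted p of 0.0451 to 0.136 with 1 array left out. Beside these marker counts, 38.4% of all genes passed in limma, and nothing is read from the counts. The part of these markers in the results below was not tested. In such bulk RNA, fewer cells of a type and less RNA per cell cannot be told apart.

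With SC1, Platr8 fell to a signal not well above background, Malat1 and Mir17hg fell by 47.2% and 47.0%, and Neat1 rose by 33.2%. E030044B06Rik and 9530059O14Rik, not above background with DMSO, were above it on every SC1 array. Tug1 on its brightest probe differed by less than its spread. Of the 7 measured RNAs, 6 passed the threshold of the fit over all genes (limma, adjusted p under 0.05), 3 higher and 3 lower. Over all 25421 genes tested 38.4% passed, 4613 higher (18.1%) and 5139 lower (20.2%). Genes tested here include identifiers of probes without a RefSeq match, each such identifier counted as a gene. With normexp background correction before 75th percentile scaling, 6970 were higher and 5071 lower. With spike-in scaling 5067 of the 25421 passed, against 9752 as reported, and with 1 array left out 7790 to 8447 did. List counts under those alternatives are to be read beside these. Among the 364 lncRNA genes of the RefSeq table that were tested, 38.7% passed, 90 higher (24.7%) and 51 lower (14%). After scaling, the groups did not overlap for 6 of the 7 RNAs, against 52.1% of all genes and 48.9% of lncRNA genes. Platr8, E030044B06Rik and 9530059O14Rik passed the filter only through the group where they were high. For this reason, and since this comparison chose some of the RNAs, nothing is read from these counts.

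**Figure D1:**
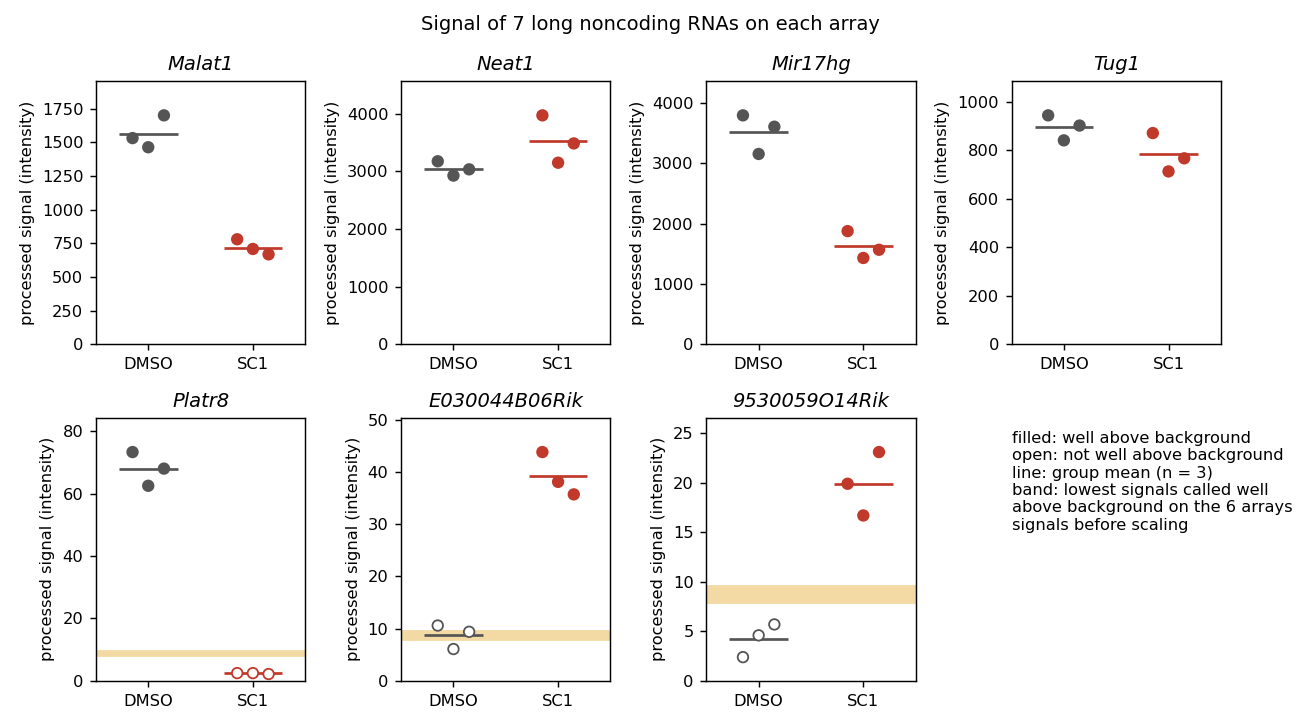
Processed signal (intensity, linear axis from 0, before scaling) of 7 long noncoding RNAs on the 3 DMSO and 3 SC1 arrays, with the group mean as a line. Platr8 has open points (not well above background) on the 3 SC1 arrays, and E030044B06Rik and 9530059O14Rik have them on the 3 DMSO arrays, while the points of Malat1 and Mir17hg form separate groups.

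Malat1 is an abundant nuclear RNA held in nuclear speckles, the stores of splicing factors. Its end is formed by part of the machinery that processes transfer RNAs. Its probe gave a processed signal, the spot intensity after background subtraction, of 1532, 1464 and 1701 on DMSO arrays 1 to 3. On SC1 arrays 1 to 3 it gave 780, 708 and 668. Every SC1 array was below every DMSO array, and the SC1 arrays lay close together. After scaling each array to its 75th percentile, the SC1 arrays stood at 54.1%, 52.9% and 51.6% of the DMSO mean. The log2 difference between SC1 and DMSO was -0.92 (SE 0.0653, n = 3 per group), a 1.89-fold lower level. SC1 replicate 1, which shared slide column 1 with the DMSO arrays, differed from their mean by -0.89, and the pair in the other column by -0.94. Among the 330 lncRNA genes above background on all 6 arrays, this was the 9th lowest difference, in the order of fitted values.

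Neat1 lies next to Malat1 and is the scaffold of paraspeckles, nuclear bodies that hold RNA-binding proteins. RefSeq lists 2 Neat1 transcripts, and its probe is assigned to 1 of them, so isoforms were not separated. The processed signal was 3175, 2927 and 3035 on the DMSO arrays and 3972, 3150 and 3485 on the SC1 arrays. Before scaling the groups overlapped, because SC1 replicate 2 was just below DMSO replicate 1. After scaling, the SC1 arrays stood at 141.5%, 120.7% and 138.2% of the DMSO mean, all above the highest DMSO array at 103.5%. The log2 difference was 0.41 (SE 0.0721, n = 3 per group), a 1.33-fold higher level. Within slide column 1 it was 0.50, and for the pair in column 2 it was 0.37. As a description, with the arrays set to their spike-in controls the difference was 0.37, and Neat1 was no longer past the threshold. In order, it was the 55th highest of the same 330 lncRNA genes.

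**Figure D2:**
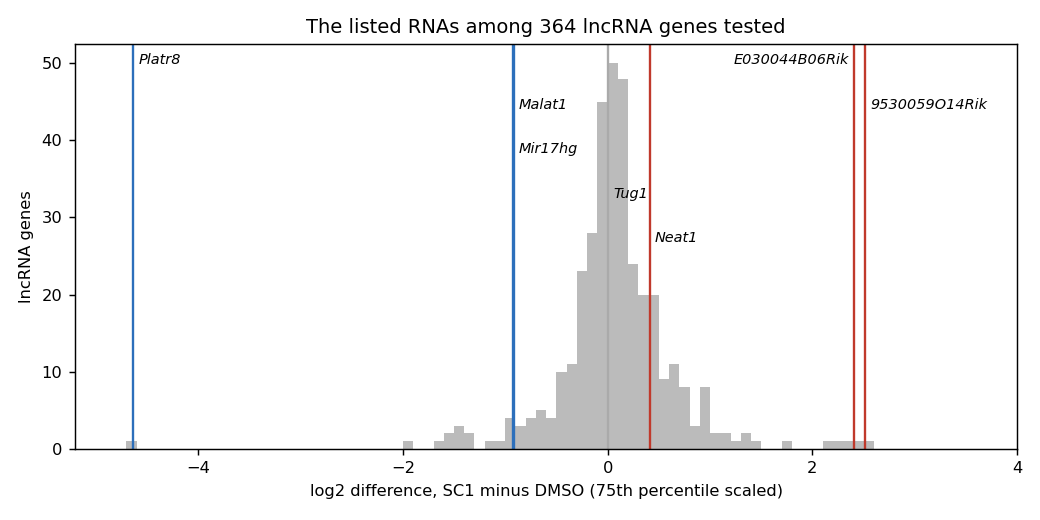
Histogram of the log2 difference (SC1 minus DMSO, x axis) of the 364 lncRNA genes tested (y axis, number of genes), with lines at the listed RNAs, red for higher, blue for lower and grey for not past the threshold. Malat1 and Mir17hg fall almost on one line near -0.92, and Platr8, E030044B06Rik and 9530059O14Rik stand at fitted values that include signals not above background.

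Protein-coding genes near the Malat1 and Neat1 pair were measured too. Neighbours were picked by position only, so they could be tested. The second neighbours named, here Ltbp3 and Slc25a45, were chosen for naming with their values known. Frmd8, a gene for a membrane adaptor next to the pair, had a log2 difference of -0.0022 (SE 0.0391) and did not pass. Ltbp3, which encodes a binding protein of latent TGF-beta, had 0.094 (SE 0.0545) and did not pass. Slc25a45, a mitochondrial carrier gene beyond Frmd8, rose by 0.55 (SE 0.126, limma adjusted p = 0.0172), but its adjusted p was 0.0568 without DMSO replicate 3, and its call was lost with the slide column as a block.

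Genes whose products meet these RNAs were counted next, and nothing is read from a share near that of all genes. Of 18 genes for paraspeckle proteins 3 rose, 4 fell and 11 did not pass (38.9% passed, against 38.4% of all genes), with a median log2 difference of -0.028 against -0.0052 over all genes. The list's median was above 0 with quantile normalization (0.021), with normexp and quantile normalization (0.025) and in the deposited matrix (0.021). Nono, 1 of the core paraspeckle proteins, fell by 0.22 on the log2 scale (SE 0.0381, limma adjusted p = 0.00618). Tardbp, which encodes TDP-43, fell by 0.28 on the log2 scale (SE 0.0576, limma adjusted p = 0.0116), with probes from -0.41 to 0.094. Dazap1 fell by 0.23 on the log2 scale, and Taf15, which encodes an RNA-binding protein, rose by 0.38 (SE 0.0715). Sfpq, the partner of Nono, rose by 0.16 (limma adjusted p = 0.0334), with another probe at -0.00033. Its adjusted p was 0.0427 to 0.102 when any 1 array was left out, and it passed only without SC1 replicate 1. With slide column as a block, which leaves SC1 replicate 1 alone against DMSO, Tardbp, Dazap1 and Sfpq did not pass. With spike-in scaling none of the 18 passed in limma, and 2 had an unadjusted p under 0.05. Over all genes 5067 passed with that scaling, against 9752 as reported.

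Of 18 genes for nuclear speckle proteins 2 rose, 6 fell and 10 did not pass (44.4% passed, against 38.4% of all genes, median -0.12). Srsf5, an SR splicing factor gene, had a log2 difference of -0.95 (SE 0.0835, limma adjusted p = 0.000458), and Srsf7 of -0.37 (SE 0.0436). Phf5a, which encodes a subunit of the splicing complex SF3b, had -0.38 (SE 0.0499). Clk1, a kinase that phosphorylates SR proteins, rose by 0.48 (SE 0.0637, limma adjusted p = 0.00233). Son and Srrm1 had -0.14 and -0.10 and did not pass, though another Srrm1 probe, at -0.18, passed when every probe was tested. Under spike-in scaling, where fewer of all genes passed too, 1 rose and 3 fell, and Srsf7 did not pass.

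In the reported processing, most genes of the machinery that processes transfer RNA ends, part of which also forms the end of Malat1, fell. Of 12 genes 1 rose, 9 fell and 2 did not pass (83.3% passed, against 38.4% of all genes, median -0.18). Trnt1, which adds the terminal CCA, had a log2 difference of -0.54 (SE 0.0573, limma adjusted p = 0.000934), with probes from -0.54 to -0.22. The RNase P subunit genes Rpp40 and Rpp21 had -0.40 (SE 0.0485) and -0.30 (SE 0.0471), while the related Rpp25 rose by 0.46 (SE 0.0486). Elac2, the nuclease of the other end, had 0.054 (SE 0.046) and did not pass. Rpp14 fell by 0.17 on the log2 scale, but its adjusted p was 0.0507 to 0.103 without any 1 of the 6 arrays. With 1 array left out, 1 rose and 5 or 6 fell. These counts also depended on the processing. With spike-in scaling 1 rose and 2 fell, while over all genes 5067 passed, against 9752 as reported. With the slide column as a block, where SC1 replicate 1 stands alone, fewer passed too. The call of Rpp21 was lost under both.

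Mir17hg is the host transcript of the cluster that runs from Mir17 to Mir92-1, a group of microRNAs that promote growth and survival and that MYC is known to induce. The array measured the host RNA, not the microRNAs. The mature sequences, from RefSeq (GRCm38.p6, plus strand, between the first at chr14:115043684-115043706 and the last at chr14:115044476-115044496), show the microRNAs of the cluster. The capitals mark the seed, bases 2 to 8, which pairs with targets. The lines are ordered by shared seed.
mmu-miR-17-5p: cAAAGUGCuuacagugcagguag
mmu-miR-20a-5p: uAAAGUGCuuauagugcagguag
mmu-miR-18a-5p: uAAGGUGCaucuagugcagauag
mmu-miR-19a-3p: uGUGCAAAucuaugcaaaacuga
mmu-miR-19b-3p: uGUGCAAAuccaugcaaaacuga
mmu-miR-92a-3p: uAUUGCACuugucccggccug
The microRNAs miR-17-5p and miR-20a-5p share the seed AAAGUGC, and both miR-19 forms share GUGCAAA.

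The RefSeq model of Mir17hg begins inside the cluster. The hairpins of Mir17, Mir18, Mir19a and Mir20a lie before its start, that of Mir19b-1 overlaps its first bases, and that of Mir92-1 is inside. The 300-base window around that start (GRCm38.p6, chr14:115044140-115044439, plus strand) is shown because it holds microRNA precursors rather than sequence before the cluster. The capitals mark miR-20a-5p, then miR-19b-3p.
Mir17hg window: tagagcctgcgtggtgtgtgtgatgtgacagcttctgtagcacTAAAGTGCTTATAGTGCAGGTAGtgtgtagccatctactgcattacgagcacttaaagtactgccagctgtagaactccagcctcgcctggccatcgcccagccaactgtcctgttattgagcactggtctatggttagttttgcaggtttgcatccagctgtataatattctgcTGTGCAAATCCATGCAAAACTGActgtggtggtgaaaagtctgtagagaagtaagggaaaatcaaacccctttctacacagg

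The Mir17hg probe, assigned to this model, gave a processed signal of 3794, 3154 and 3606 on the DMSO arrays and 1875, 1430 and 1566 on the SC1 arrays. The groups did not overlap. Scaled, the SC1 arrays stood at 58%, 47.6% and 53.9% of the DMSO mean, a wider spread than for Malat1. The log2 difference was -0.92 (SE 0.0982, n = 3 per group), a 1.89-fold lower level. It was -0.79 for SC1 replicate 1 within slide column 1 and -0.98 for the pair in column 2. Mir17hg was the 10th lowest of the 330 lncRNA genes, next to Malat1.

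Of 8 genes that regulate the host transcript 1 rose, 4 fell and 3 did not pass. The share that passed was 62.5%, against 38.4% of all genes, and the median was -0.32. Myc fell 23.4-fold (log2 difference -4.55, SE 0.0601, limma adjusted p = 2.45e-06). With normexp, which adds an offset, its log2 difference was -3.39 or -3.36. Mycn, its relative, had -0.55 (SE 0.0546, limma adjusted p = 0.00074). E2f2, a cell cycle transcription factor gene, had -0.96 (SE 0.0556), and the cyclin gene Ccnd1 -0.55 (SE 0.0553). Stat3, the transducer of LIF, rose by 0.42 (SE 0.0591), and its adjusted p was 0.0808 with spike-in scaling. Stat3 lies outside the rule for named genes and was added with its value known. Max, E2f1 and E2f3 did not pass.

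Of 15 genes that make or load microRNAs 2 rose, 3 fell and 10 did not pass. The share that passed was 33.3%, against 38.4% of all genes, and the median was -0.050. Lin28a, which blocks let-7 maturation, had a log2 difference of -0.48 (SE 0.0408, limma adjusted p = 0.000417). Dgcr8, the partner of Drosha, had -0.32 (SE 0.0402), and Prkra -0.38 (SE 0.0508). Drosha itself had -0.10 (SE 0.0426) and did not pass. Tarbp2, a Dicer partner gene, rose by 0.28 (SE 0.0512). With spike-in scaling, where fewer of all genes passed too, 0 rose and 2 fell, and Dgcr8 and Tarbp2 did not pass. The median of the list was above 0 with quantile normalization (0.032) and in the deposited matrix (0.031).

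Genes known as targets of the cluster went both ways. Of 14, 5 rose, 4 fell and 5 did not pass (64.3% passed, against 38.4% of all genes, median -0.10). Txnip, a thioredoxin inhibitor gene, rose by 0.97 (SE 0.0416, limma adjusted p = 4.33e-05). Lats2, a Hippo pathway kinase gene, had a log2 difference of -1.55 (SE 0.0727, limma adjusted p = 5.42e-05), with another probe at -0.72. Ccn2, which encodes a matricellular growth factor, had -0.53 (SE 0.0562). Bcl2l11, which encodes the death factor BIM, had -0.25 (SE 0.0972) and did not pass. The sign of this median was not stable. It was above 0 with normexp (0.023 after quantile normalization and 0.057 after 75th percentile scaling), with the filter on all 6 arrays (0.044), with the mean of a gene's probes (0.043) and without DMSO replicate 3 (0.0022). With spike-in scaling, where fewer of all genes passed too, 1 rose and 3 fell.

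**Figure D3:**
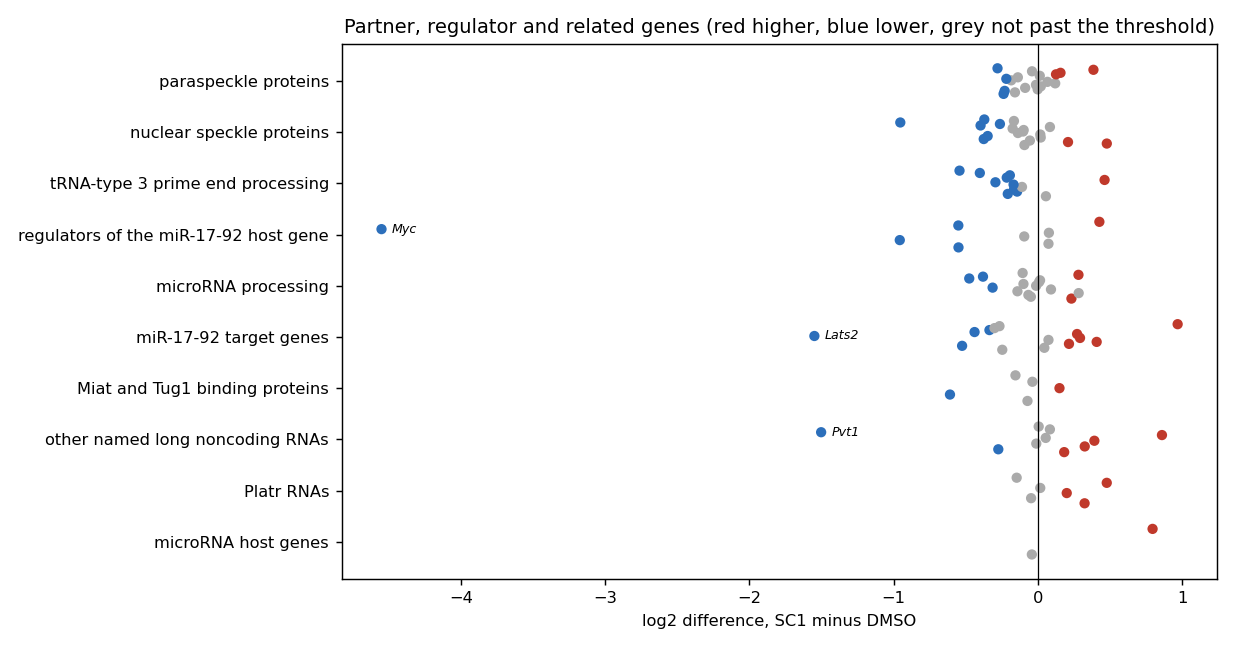
Log2 difference (SC1 minus DMSO, x axis) of each tested gene in the lists of partners, regulators and related RNAs (y axis), red for higher, blue for lower and grey for not past the threshold. Myc, at -4.55, lies far from the other genes, most of which sit within 1 log2 unit of 0.

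Platr8 belongs to the pluripotency-associated transcripts, noncoding RNAs named for their tie to the stem cell state. Its processed signal was 73.3, 62.5 and 68 on the DMSO arrays. On the SC1 arrays it was 2.5, 2.5 and 2.2, not well above background on any of them, where the lowest signals called well above background were 7.9 to 9.6. With the SC1 arrays set at such signals, Platr8 was 6.82-fold lower with SC1. This fold sets each array without detection at the lowest signal called well above background there, or at the probe's own signal where that was higher. That lowest signal comes from any probe and is not a detection limit of this one, so the fold is not a minimum. The fitted log2 difference of -4.63 (SE 0.068) includes signals below that level, and normexp background correction gave -0.93 or -0.80.

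Of 17 other Platr RNAs in RefSeq 6 were tested, and 3 rose, 0 fell and 3 did not pass in limma, with 4 at an unadjusted p under 0.05. The share that rose was 50%, against 24.7% of lncRNA genes and 18.1% of all genes, and with 6 RNAs nothing is read from it. Platr4 rose by 0.48 (SE 0.0834, limma adjusted p = 0.00648), Platr10 by 0.32 (SE 0.05) and Platr21 by 0.20 (SE 0.0415). Platr5, Platr14 and Platr26 had -0.15, -0.048 and 0.015. With spike-in scaling, where fewer of all genes passed too, 1 of the 6 rose, and Platr10 and Platr21 did not pass.

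Next to Platr8, Lgr4, which encodes a receptor for R-spondins, had a log2 difference of -1.22 (SE 0.0699, limma adjusted p = 0.000103), a 2.33-fold decrease. Lin7c, the nearest gene on the other side, had -0.058 (SE 0.0554) and did not pass. Bdnf, beyond it, had 0.16 (SE 0.0743) and did not pass. Ccdc34 rose by 0.33 (SE 0.073, limma adjusted p = 0.0151), but its call was lost without DMSO replicate 1, under spike-in scaling and when slide column was blocked.

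Tug1 is a widely expressed RNA with reported ties to Polycomb repression. Its brightest probe was spotted 10 times per array, and after outlying spots were left out 9 or 10 remained, with a coefficient of variation between spots of 3.62% to 5.39%. The mean signal was 943, 840 and 901 on the DMSO arrays and 870, 712 and 766 on the SC1 arrays. After scaling the groups overlapped, with SC1 at 105.6%, 92.9% and 103.4% of the DMSO mean. The log2 difference was 0.0070 (SE 0.0687, n = 3 per group), with a 95% interval from -0.16 to 0.18. A second probe gave 353, 384 and 353 on the DMSO arrays and 371, 394 and 348 on the SC1 arrays. Scaled, its SC1 arrays at 111%, 126.8% and 115.9% of the DMSO mean were above every DMSO array. The log2 difference of that probe was 0.24 (SE 0.0699). The dimmest probe gave 169.8, 162.3 and 165.7 with DMSO and 174.4, 161.4 and 134.1 with SC1, a log2 difference of 0.11 (SE 0.0724) with overlap. The probes of Tug1 thus disagreed on the size of the difference, and their mean was 0.12.

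Beside Tug1, Smtn, a smooth muscle protein gene, had a log2 difference of -0.30 (SE 0.0503, limma adjusted p = 0.00517). Its call was lost with the slide column as a block and with spike-in scaling. Morc2a, on the other side, had -0.17 (SE 0.044, limma adjusted p = 0.0264). Its adjusted p ran from 0.0409 to 0.0785 with 1 array left out, and it passed only without SC1 replicate 3. Of the genes for Polycomb proteins linked to Tug1, Eed fell by 0.61 on the log2 scale (SE 0.0619, limma adjusted p = 0.000812). Suz12 had -0.16 and did not pass. Ezh2 rose by 0.15 (limma adjusted p = 0.0444), with an adjusted p of 0.0665 to 0.127 when any 1 array was left out. Sf1 and Celf3, linked to Miat, had -0.039 and -0.073 and did not pass, and Qki matched no probe. Mn1, a transcriptional coregulator gene next to Miat, rose 2.86-fold (log2 difference 1.51, SE 0.0503, limma adjusted p = 1.82e-05), while Cryba4 on the other side had 0.12 (SE 0.0616) and did not pass.

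E030044B06Rik and 9530059O14Rik carry only the systematic names of their cDNA clones. The processed signal of E030044B06Rik was 10.6, 6.1 and 9.4 on the DMSO arrays, not well above background on any, and 43.8, 38.1 and 35.7 on the SC1 arrays, where it was. With DMSO arrays set as for Platr8, its level was 4.68-fold higher with SC1, which is not a minimum either. On DMSO array 1 its uncalled signal of 10.6 exceeded the lowest signal called there, 9.2. The signal of 9530059O14Rik was 2.4, 4.6 and 5.7 on the DMSO arrays, again not well above background, and 19.9, 16.7 and 23.1 on the SC1 arrays. Set in the same way, its level was 2.53-fold higher. The fitted log2 differences were 2.41 (SE 0.201) and 2.51 (SE 0.333). With normexp and quantile normalization they were 0.58 and 0.29. Both RNAs are dim even with SC1, so their sizes rest on signals close to background.

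Of the nearest coding genes beside these RNAs, 1 rose, 1 fell and 2 did not pass. Ccnj, a cyclin gene beside E030044B06Rik, rose by 0.26 (SE 0.0481, limma adjusted p = 0.00836), with another probe at 0.13, and did not pass with the mean of its probes or with spike-in scaling. Zfp518a on the other side had 0.046 (SE 0.107) and did not pass. Beside 9530059O14Rik, Abhd5, a lipase activator gene, had 0.0053 (SE 0.0551) and did not pass, with probes up to 0.26. Topaz1, a germ cell gene, fell by 0.34 on the log2 scale (SE 0.0575, limma adjusted p = 0.00596). Next to Mir17hg, Slitrk5 and Gpc5 had 0.31 (SE 0.133) and 0.0070 (SE 0.0925), and neither passed. Over all 24 neighbours tested, 5 rose, 5 fell and 14 did not pass (41.7% passed, against 38.4% of all genes, median 0.026). With spike-in scaling, where fewer of all genes passed too, 2 rose and 1 fell, Topaz1 did not pass and the median was -0.014.

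**Figure D4:**
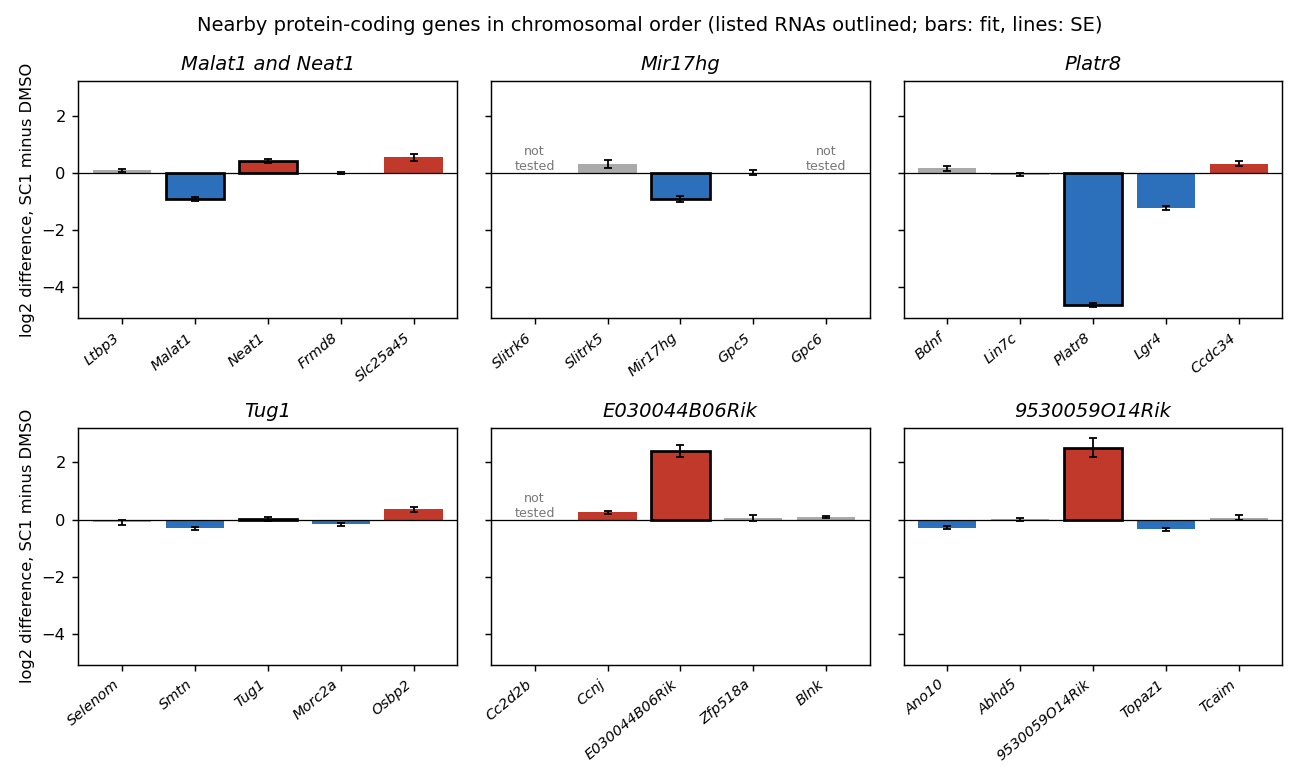
Log2 difference (SC1 minus DMSO, y axis) of the listed RNAs (outlined) and nearby protein-coding genes in chromosomal order (x axis, not to scale), with SE as lines and the colours red for higher, blue for lower and grey for not past the threshold. Malat1 at -0.92 and Neat1 at 0.41 lie side by side next to Frmd8 at -0.0022, and bars of Platr8, E030044B06Rik and 9530059O14Rik are fitted values that include signals not above background.

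The promoter windows of the RNAs with the largest differences were read from RefSeq (GRCm38.p6, 300 bases around the start). Each was searched on both strands for 4 motifs: the E-box CACGTG, to which MYC and MAX bind, the ETS motif CCGGAAG, the STAT motif TTCNNNGAA and the AP-1 motif TGANTCA. Of 32851 promoter windows 7.15% held the E-box, 8.86% the ETS motif, 8.3% the STAT motif and 7.81% the AP-1 motif. Of the 7 listed RNAs with a window, Miat among them, only 9530059O14Rik held any of the 4, and it held 1 E-box, in capitals. The Mir17hg window lies inside the cluster, so the sequence before the cluster was not searched. The windows of Platr8 (chr2:109913270-109913569, minus strand), E030044B06Rik (chr19:40868066-40868365, plus strand) and 9530059O14Rik (chr9:122572251-122572550, plus strand) are shown because these RNAs crossed the background level.
Platr8: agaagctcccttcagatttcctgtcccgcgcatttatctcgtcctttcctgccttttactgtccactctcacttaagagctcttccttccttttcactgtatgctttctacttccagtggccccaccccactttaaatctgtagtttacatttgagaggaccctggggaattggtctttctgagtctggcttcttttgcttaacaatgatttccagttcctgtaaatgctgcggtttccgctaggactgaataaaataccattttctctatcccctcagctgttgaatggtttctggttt
E030044B06Rik: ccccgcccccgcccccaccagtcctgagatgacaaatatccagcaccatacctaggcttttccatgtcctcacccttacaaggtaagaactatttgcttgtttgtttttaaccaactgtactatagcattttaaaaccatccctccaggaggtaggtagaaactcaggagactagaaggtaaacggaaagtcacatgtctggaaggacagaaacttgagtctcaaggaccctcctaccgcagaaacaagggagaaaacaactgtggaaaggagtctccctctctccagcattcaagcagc
9530059O14Rik: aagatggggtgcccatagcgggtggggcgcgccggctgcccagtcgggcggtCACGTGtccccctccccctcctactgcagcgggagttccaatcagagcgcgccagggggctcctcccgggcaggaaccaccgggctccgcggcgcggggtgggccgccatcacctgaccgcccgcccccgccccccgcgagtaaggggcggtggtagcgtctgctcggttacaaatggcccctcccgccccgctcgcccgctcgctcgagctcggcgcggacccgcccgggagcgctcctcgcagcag
The windows differ in base composition: 75.7% of the bases of the 9530059O14Rik window are G or C, against 47.7% for E030044B06Rik and 44.3% for Platr8. A match describes the letters only, and its absence says nothing of the factor.

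Likeness between genes was measured as the root mean square difference over the 6 arrays of log2 values centred on each gene's DMSO mean, so that the response and the replicate pattern both count. It uses the comparison that chose some of the RNAs and is a description only. For Malat1 the most alike were Lss, a cholesterol synthesis gene, at 0.0215, Ccdc33 at 0.0229 and Exoc3l at 0.0452. For Mir17hg they were Phc1, a Polycomb gene, at 0.0425, Eras, a RAS gene of embryonic stem cells, at 0.0508, and Pon2 at 0.0556. For Neat1 they were Ang at 0.0206 and Mfsd11 at 0.0221. For Tug1 they were Med9 at 0.0205, Tbk1 at 0.0235 and Bag6 at 0.0254. For Platr8, E030044B06Rik and 9530059O14Rik no distances are given, since their signals were not above background in one of the groups. Over 6 arrays in 2 groups, this measure reads the difference between groups as well as the spread between arrays.

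Other long noncoding RNAs of known name gave the setting. Of 32, 10 were tested, 9 had probes that were not above background and 13 matched no probe. Lncenc1, a stem cell RNA, was among those without a probe, and Tunar, a pluripotency RNA, was not above background. Among the 10, 4 rose, 2 fell and 4 did not pass (60% passed, against 38.4% of all genes, median 0.068). Pvt1, a microRNA host next to Myc, had a log2 difference of -1.50 (SE 0.0541, limma adjusted p = 2.3e-05), with another probe at -0.83. Dancr had -0.28 (SE 0.0443, limma adjusted p = 0.00467). Kcnq1ot1, an imprinted antisense RNA, rose by 0.86 (SE 0.143, limma adjusted p = 0.00527), with another probe at 0.25, and Dleu2, host of miR-15a and miR-16, by 0.32 (SE 0.0477). With spike-in scaling Dancr and Dleu2 did not pass. Of 13 microRNA host genes named as such 2 were tested: Mir9-3hg rose by 0.79 (SE 0.0889, limma adjusted p = 0.00118), and Mir22hg had -0.043 (SE 0.0717) and did not pass.

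**Figure D5:**
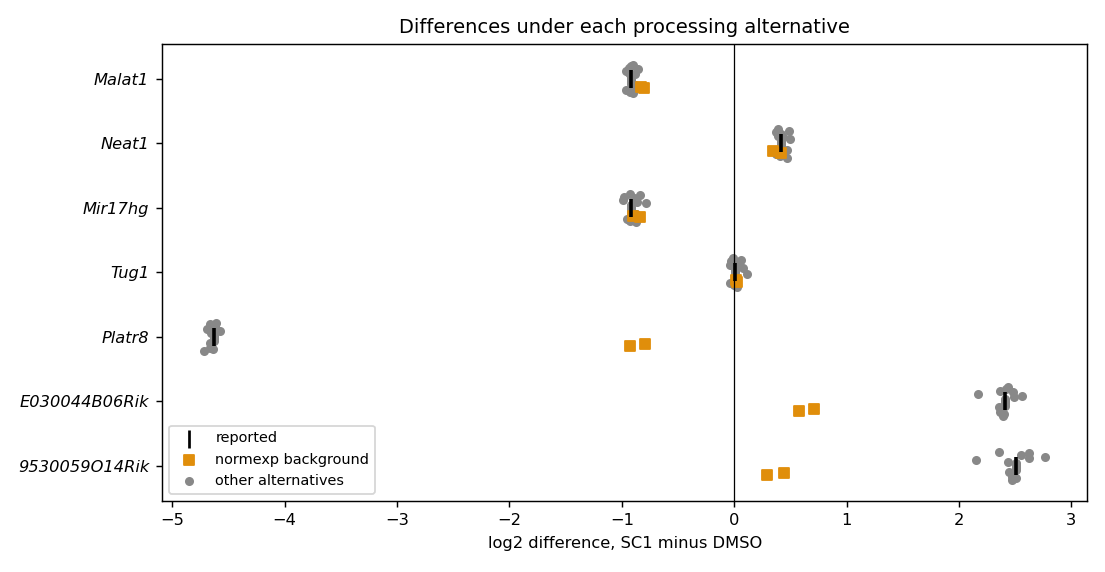
Log2 difference (SC1 minus DMSO, x axis) of each listed RNA (y axis) as reported (bar) and under each alternative (grey points, with normexp background correction as orange squares). The points of Malat1, Mir17hg and Neat1 lie close to the reported values, while normexp brings Platr8 from -4.63 to -0.93 or -0.80.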

How the data were processed

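Spots were quantified with Agilent Feature Extraction 10.7, per the submitters' processing notes. The deposited intensity per spot is a background-subtracted, detrended signal, with raw medians beside it, per the file headers; flags of 0 or 1 mark spots well above background. A matrix of log2 values that the authors deposited has a median of 5.17 in each column and lay within 0.153 of quantile-normalized log2 signals; how it was made is not given in the sources used here.

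Here, each probe's log2 signal was the mean over its spots without outlier flags, and the array's 75th percentile over probes (532.2 to 539 with DMSO, 443.3 to 493.3 with SC1) was subtracted. Probes well above background on all 3 arrays of a group were kept (35321). RefSeq accessions (GRCm38.p6 table) named 27235 probes. Any other probe kept its own listed name, and each such name counted as a gene. The brightest probe stood for a gene, with a value required on all 6 arrays. SC1 and DMSO were compared with limma 3.58.1 in R 4.3.3 (Benjamini-Hochberg over all genes, threshold 0.05, two-sided). The fit was tested on simulated data for 25421 genes. It recovered 16 of 50 genes changed 1.25-fold, 37 of 50 at 1.5-fold, 45 of 50 at 2-fold and 47 of 50 at 4-fold. Of the unchanged genes 6 were called. Small differences can therefore be missed, and the simulation changed far fewer genes than passed in the data. Members and lists were chosen with earlier results of these data known. Named genes were the listed RNAs, the first 2 genes of a list and, from those past the threshold, up to 4 by p, the nearest neighbours and the 3 most alike genes (given for RNAs above background in both groups); others (Max, E2f1, E2f3, Stat3, Suz12, Ezh2, Celf3, the remaining Platr RNAs, second neighbours) were added with values known. Some genes the rule selects are not reported here. Neighbours were the 2 nearest protein-coding genes on each side. Genomic intervals on mm9 were not matched to the RNAs, since the builds differ. Alternatives were 3 other scalings, normexp, the matrix, filters, probe rules, priors, blocks and leaving out each array. Figures used matplotlib 3.10.9.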

Additional observations from a re-analysis of the deposited data

How the results depend on the processing

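As a description of values that helped choose the RNAs, the log2 difference ran over 19 alternatives from -0.96 to -0.81 for Malat1, from -0.99 to -0.79 for Mir17hg and from 0.35 to 0.50 for Neat1, and from -0.034 to 0.12 for Tug1 on its brightest probe or the mean of its probes. Over 18 alternatives it ran from -4.72 to -0.80 for Platr8, from 0.58 to 2.56 for E030044B06Rik and from 0.29 to 2.77 for 9530059O14Rik, which are not measured above background in one group. The smallest sizes of these 3 came with normexp, which adds an offset of 50. The filter on all 6 arrays removes the 3 RNAs near background, which leaves 3 past the threshold. With spike-in scaling 5067 genes changed (9752 as reported). So did 20 of the partner, regulator and related genes (52 as reported), 3 neighbours (10) and 2 of the Platr RNAs and host genes (4). With the slide column as a block these were 5542 genes, 31 partner, regulator and related genes and 5 neighbours; the cause was not tested. Leaving out 1 array gave 7790 to 8447 genes, 42 to 44 partner, regulator and related genes, 8 to 10 neighbours, 4 to 4 Platr RNAs and host genes and 6 to 6 listed RNAs. Replicate numbers did not pair the samples (correlations of same-numbered deviations -0.013, -0.036 and -0.015); the replicate block gave 7914 genes and 6 listed RNAs. Of 66 list genes past the threshold 23 kept their call under every alternative, 41 lost it with spike-in scaling, 27 with the slide column and 15 when some array was left out; none changed sign.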
